A study of Drosophila melanogaster with 6 samples.

Results

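The genes described here are the digestive hydrolases of the fly midgut that carry a family name: the Jonah proteases, the trypsins named by Greek letters, the amylases, the maltases of the Mal-A and Mal-B clusters and the lysosomal alpha-mannosidases (LMan). They were taken by a rule on the symbol, set with earlier results of these data known, as every gene of the count table whose name begins with Jon and a digit, Mal-A, Mal-B, Amy- or LMan, or is a Greek letter followed by Try. That gave 41 of 13189 genes, made up of 16 Jonah proteases, 11 trypsins, 8 maltases, 2 amylases and 4 mannosidases. The annotation names 45 genes of this kind, and the other 4 (LManIII, LManIV, Mal-B1 and Mal-B2) were not analysed here.

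Jonah proteases and the Greek-letter trypsins are secreted serine endopeptidases of the chymotrypsin fold, and trypsins cut proteins after lysine or arginine. Amylases break starch into maltose and short dextrins, and maltases release glucose from these. In the adult midgut these enzymes are products of enterocytes, the absorptive cells, and many are made in particular gut regions and vary with diet. Alpha-mannosidases remove mannose from glycans, by their name in the lysosome. They are the members that the description as digestive enzymes covers least well.

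The libraries came from Drosophila melanogaster intestinal progenitor cells, the stem cells and undifferentiated daughters that renew the midgut, sorted for GFP driven by escargot (esg). There were 3 libraries labelled Pex5-depleted and 3 control (wild-type) libraries, and each replicate pooled 200 guts and about 40000 sorted cells. The product of Pex5 is the receptor for import of enzymes into the peroxisome. How it was depleted, and the sex and age of the flies, are not given in the labels used here, and the esg-driven GFP is named there only for the flies that set the sorting gate. The poly-A RNA was counted with a 3′ tag and a unique molecular identifier (UMI), so that 1 UMI stands for 1 captured molecule whatever the length of the transcript. Depth was 2573882 to 4793433 UMIs in the libraries labelled Pex5-depleted and 3013033 to 3547768 in the controls. Levels are in CPM, UMI counts scaled to the size and composition of their library. A count of 0 in 1 library allows up to 3 UMIs, or 0.634 to 1.09 CPM, counting error only. Mitochondrial genes held 8.05% to 9.31% of the UMIs in libraries labelled Pex5-depleted and 5.63% to 7.44% in the controls, and their part in the results was not tested. The Pex5 transcript was counted 2, 21 and 41 times in libraries labelled Pex5-depleted 1, 2 and 3, and 8, 6 and 14 times in control replicates 1, 2 and 3. Its mean was 6.41 ± 6.89 against 2.66 ± 0.947 CPM (SD, n = 3 each). The fitted log2 fold change of 1.24 (SE 0.87) did not pass the test (adjusted p = 0.607, edgeR) and was -0.03 without the library labelled Pex5-depleted 3. A lower Pex5 level was thus not seen in the group that carries the label, which is therefore named by its label in what follows.

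Transcripts of these enzymes were a small part of the RNA in every library, and the group labelled Pex5-depleted had the higher mean. Summed over the 41 genes, the level was 1172, 900.0 and 1048 CPM in libraries labelled Pex5-depleted 1, 2 and 3, and 216, 933 and 417 CPM in control replicates 1, 2 and 3. The means were 1039.9 ± 136 against 522 ± 369.7 CPM (SD, n = 3 each). Control replicate 2 lay above the library labelled Pex5-depleted 2, so the groups overlapped. Control replicate 1 was the lowest of the 6, and the highest library held 5.43 times its sum. The ratio of the means was 1.99 with all libraries, 3.29 without control replicate 2 and 1.54 without control replicate 1. In bulk samples, fewer cells that make an enzyme and less of its RNA per cell cannot be told apart.

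The classes did not share 1 pattern over the libraries. The Jonah proteases summed to 630, 387 and 773 CPM in libraries labelled Pex5-depleted 1, 2 and 3, against 59.2, 589 and 263 CPM in control replicates 1, 2 and 3. For the trypsins the sums were 273, 102 and 86.5 CPM against 18.0, 202 and 63.05 CPM. Both protease classes were thus lowest in control replicate 1, and in both control replicate 2 stood among the high libraries. The amylases gave 223, 307 and 158 CPM in libraries labelled Pex5-depleted and 125, 108 and 74.3 CPM in the controls. Their groups did not overlap, and control replicate 1 was their highest control, unlike for the proteases. For the maltases the sums were 36.1, 98.2 and 25.7 CPM against 13.1, 32.6 and 14.2 CPM, with the library labelled Pex5-depleted 2 far above the rest.

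**Figure D1:**
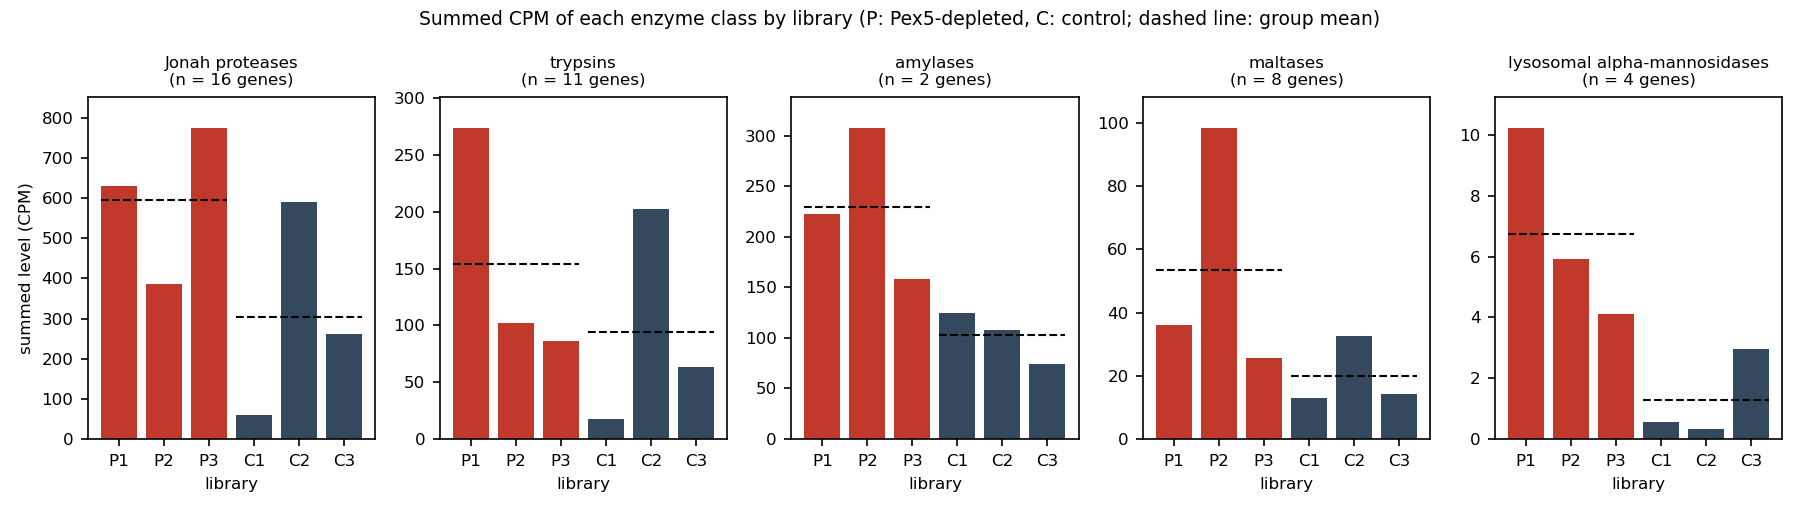
Bars give the summed level of each enzyme class in CPM, from 0, in each library (P1 to P3, labelled Pex5-depleted; C1 to C3, control), and dashed lines the group means. Control replicate 1 is the lowest bar for Jonah proteases (59.2 CPM) and trypsins (18.0 CPM), while the amylase bars of the 2 groups do not overlap.

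The make-up of the enzyme transcripts differed from library to library as well. Amylases held 19.0% of the UMIs of the 41 genes in the library labelled Pex5-depleted 1 (exact Clopper-Pearson 95% interval 17.7% to 20.4%), 34.1% in replicate 2 (32.7% to 35.6%) and 15.1% in replicate 3 (13.8% to 16.4%). In control replicate 1 they held 57.9% (54.4% to 61.4%), against 11.6% (10.4% to 12.9%) in control replicate 2 and 17.8% (15.9% to 19.8%) in control replicate 3. Jonah proteases held the largest share of the 5 classes in each library other than control replicate 1, from 43.0% to 73.8% in the libraries labelled Pex5-depleted. The intervals cover counting error only.

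Of the 41 genes, 22 had enough UMIs to be tested and 19 did not. The filter asked for about 2.91 CPM in at least 3 of the 6 libraries. Of the 22 tested, 17 reached that level in at least 2 control libraries, and 2, kappaTry and Mal-A3, reached it only in libraries labelled Pex5-depleted. In edgeR's quasi-likelihood test with Benjamini-Hochberg adjustment over 5639 genes, 2 of the 22 were higher, Jon25Biii and Amy-p, where 0.833% of all tested genes were called higher and 1.65% in either direction. None was called lower by edgeR, DESeq2 or limma-voom, where edgeR called 0.816% of all tested genes lower. In either direction, DESeq2 called 208 of 5638 genes and limma-voom 84 of 5639. At an unadjusted p under 0.05, 0 of the 22 were lower, against 6.67% of all tested genes. By the same unadjusted p, 10 of the 22 were higher, against 6.54% of all tested genes. The log2 fold change was positive in 21 of the 22, with a median of 1.09, against 52.7% of all tested genes and a median of 0.03. As kappaTry and Mal-A3 are among the 10 and the 21, these shares and the median are a description.

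**Figure D2:**
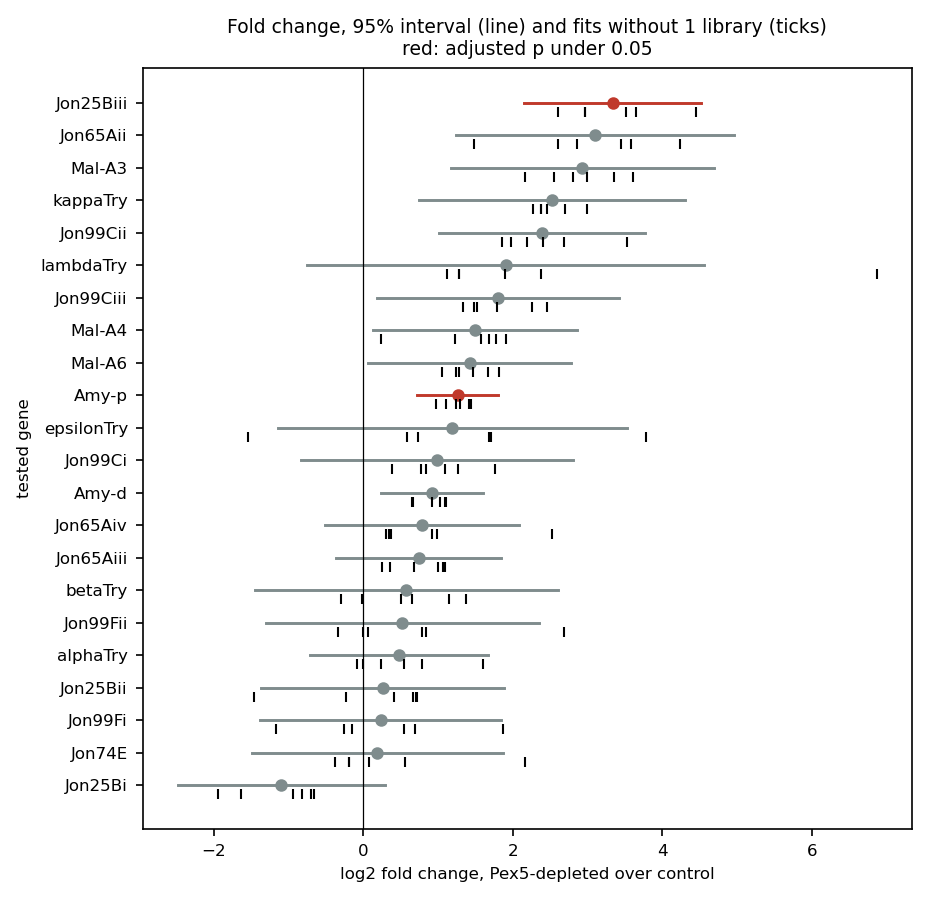
Points give the log2 fold change of each of the 22 tested genes, labelled Pex5-depleted over control, lines its 95% interval from edgeR's fit, and ticks the value in each of the 6 fits without 1 library. Jon25Biii (3.33) and Amy-p (1.26), in red, are the genes past an adjusted p of 0.05, and Jon25Bi (-1.10) is the tested gene with a negative value.

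Jon25Biii had the largest fitted change of the 12 tested Jonah genes. It was counted 265, 671 and 999 times in libraries labelled Pex5-depleted 1, 2 and 3, or 96.7, 142 and 343 CPM, against 32, 121 and 32 times in control replicates 1, 2 and 3, or 8.73, 41.5 and 8.59 CPM. Every library labelled Pex5-depleted lay above every control, though control replicate 2 stood well above the other two controls. On the log2 scale the fold change was 3.33 (SE 0.56, 95% interval 2.15 to 4.52; adjusted p = 0.00866, edgeR). Without control replicate 1 or without the library labelled Pex5-depleted 3 it was 2.97 and 2.61, and the call ended there (adjusted p = 0.0639 and 0.0544). Without control replicate 2 the value was 4.46. Jon25Biii has 1 exon and lies on chromosome 2L, 4949941 to 4950767, minus strand, in dm6 coordinates.

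The neighbouring Jon25Bi and Jon25Bii did not follow it. Jon25Bi was at 74.8, 15.2 and 28.8 CPM in libraries labelled Pex5-depleted 1, 2 and 3, and at 9.82, 129 and 112 CPM in control replicates 1, 2 and 3. Control replicate 1 held the lowest value and the other two controls the highest ones. Its log2 fold change of -1.10 (SE 0.65, 95% interval -2.49 to 0.30) did not pass (adjusted p = 0.521, edgeR). Jon25Bii was at 39.0, 4.86 and 4.81 CPM against 3.00, 21.2 and 16.1 CPM, with a fitted value of 0.26 (SE 0.76) whose sign turned to -0.17 with limma-voom.

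The 3 genes of this cluster span 5204 bases of chromosome 2L, so their ratios can be read within each library, free of any scaling. The ratio of Jon25Biii to Jon25Bi UMIs was 1.29, 9.32 and 11.9 in the libraries labelled Pex5-depleted 1, 2 and 3, against 0.889, 0.321 and 0.0764 in control replicates 1, 2 and 3. Jon25Biii was the more abundant of the pair in each library of the first group, and the less abundant in each control. The ratio of Jon25Biii to Jon25Bii was 2.48, 29.2 and 71.4 against 2.91, 1.95 and 0.533, and here the groups overlapped. These pairs were chosen after their values were seen, and no test was made of them.

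**Figure D3:**
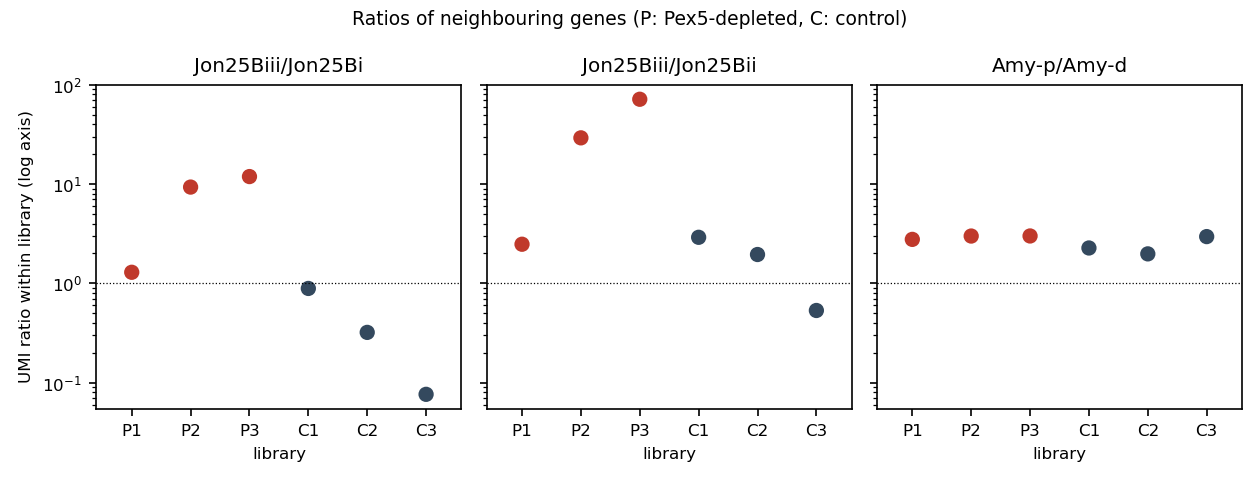
Points give, on a log axis, the ratio of UMIs of neighbouring genes within each library (P1 to P3, labelled Pex5-depleted; C1 to C3, control). The Jon25Biii to Jon25Bi ratio runs from 1.29 to 11.9 in the libraries labelled Pex5-depleted and from 0.0764 to 0.889 in the controls, while the Amy-p to Amy-d ratio stays between 1.98 and 3.00 in all 6.

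The Jon65A genes on chromosome 3L, of which Jon65Aiv stands more than 10 kb from the others, did not pass. Jon65Aiv was at 189, 87.8 and 96.1 CPM in libraries labelled Pex5-depleted 1, 2 and 3, against 16.1, 175 and 26.3 CPM in control replicates 1, 2 and 3. Its groups overlapped through control replicate 2, and the log2 fold change was 0.79 (SE 0.61; adjusted p = 0.646, edgeR). Without control replicate 2 it was 2.53 and passed (adjusted p = 0.00169, edgeR). Jon65Aiii was at 112, 81.1 and 34.0 CPM against 9.27, 62.03 and 64.7 CPM, a fitted value of 0.74 (SE 0.52).

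Jon65Aii had most of its UMIs in 1 library. It was counted 26, 23 and 146 times in libraries labelled Pex5-depleted 1, 2 and 3, and 2, 16 and 6 times in control replicates 1, 2 and 3, so that the library labelled Pex5-depleted 3 held 66.7% of its UMIs. The groups overlapped, at 4.86 CPM in the library labelled Pex5-depleted 2 and 5.48 CPM in control replicate 2. The log2 fold change of 3.10 (SE 0.87) did not pass (adjusted p = 0.106, edgeR), was 1.48 without the library labelled Pex5-depleted 3, and passed with DESeq2 (adjusted p = 0.00586). The remaining gene of the name, Jon65Ai, had 3 UMIs in each group and was not tested.

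On chromosome 3R, the 99C genes had more UMIs in the libraries labelled Pex5-depleted. Jon99Cii was at 26.6, 15.2 and 40.2 CPM in libraries labelled Pex5-depleted 1, 2 and 3, against 0.818, 11.3 and 3.76 CPM in control replicates 1, 2 and 3, and its groups did not overlap. Its log2 fold change of 2.39 (SE 0.65) missed the threshold with edgeR (adjusted p = 0.0912) and passed with DESeq2 (adjusted p = 0.00629). Jon99Ciii was at 16.0, 3.38 and 15.1 CPM against 0.818, 5.83 and 3.22 CPM, a log2 fold change of 1.80 (SE 0.76). Jon99Ci was at 12.8, 6.34 and 13.4 CPM against 0, 10.3 and 6.17 CPM, a fitted value of 0.98 (SE 0.85). Neither passed (adjusted p = 0.315 and 0.687, edgeR), and in both the groups overlapped.

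Jon99Fi, Jon99Fii and Jon74E did not pass, and their errors were wide. Jon99Fi was at 16.0, 9.29 and 73.1 CPM in libraries labelled Pex5-depleted 1, 2 and 3, against 6.27, 66.5 and 11.3 CPM in control replicates 1, 2 and 3. In each group 1 library was far above the others, the library labelled Pex5-depleted 3 and control replicate 2. Jon74E was at 27.0, 8.24 and 20.6 CPM against 1.09, 41.1 and 6.98 CPM. The log2 fold changes were 0.23 (SE 0.76), 0.52 (SE 0.86) and 0.19 (SE 0.79) for Jon99Fi, Jon99Fii and Jon74E. The 95% interval of Jon99Fi, -1.38 to 1.84, does not exclude a large change in either direction. Each of the 3 changed sign in at least 1 fit without 1 library. With limma-voom, Jon99Fii and Jon74E were at 1.4 and 1.25, also not past the threshold (adjusted p = 0.481 and 0.501).

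Jon44E was close to absent from the controls and was not tested. It was counted 9, 11 and 92 times in libraries labelled Pex5-depleted 1, 2 and 3, and 0, 1 and 1 times in control replicates 1, 2 and 3. The groups did not overlap, and the library labelled Pex5-depleted 3 held 80.7% of its UMIs. Pooled over each group, the ratio of CPM was 55.6 (exact 95% interval 15.0 to 465, counting error only), and 13.8 (3.35 to 122) without that library. Its end overlaps that of CG8586 on the other strand by 49 bases, and CG8586 was counted 4 times in the 6 libraries. Jon66Ci and Jon66Cii had 11 and 5 UMIs in the libraries labelled Pex5-depleted and 2 and 1 UMIs in the controls.

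The library labelled Pex5-depleted 3 was the highest of the 6 for 6 of the 12 tested Jonah genes, the library labelled Pex5-depleted 1 for 4 and control replicate 2 for 2. Control replicate 1 was the lowest for 10 of the 12. By median the 12 tested Jonah genes had a log2 fold change of 0.76, with 11 positive.

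**Figure D4:**
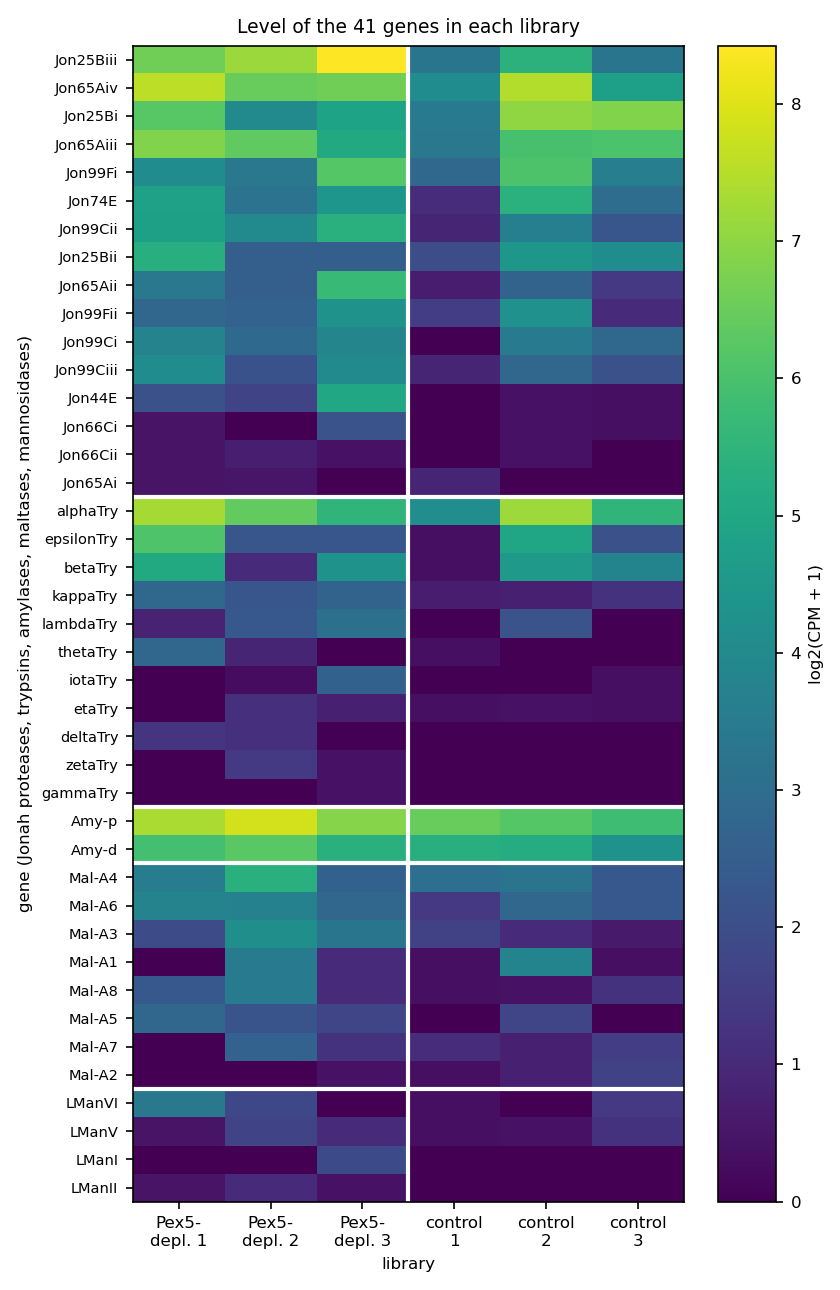
Colour gives the level of each of the 41 genes as log2(CPM + 1) in each library, with the libraries labelled Pex5-depleted on the left and controls on the right, and white lines between the groups and between classes, and dark blue for low levels. Most Jonah and trypsin rows are darkest in control replicate 1, where their sums were 59.2 and 18.0 CPM, and the mannosidase rows are dark throughout.

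All 11 trypsin genes lie within 20698 bases of chromosome 2R, and alphaTry held the most UMIs of the class. It was at 157, 84.3 and 44.6 CPM in libraries labelled Pex5-depleted 1, 2 and 3, against 16.4, 145 and 45.1 CPM in control replicates 1, 2 and 3. The groups overlapped over most of their range. A fitted log2 fold change of 0.47 (SE 0.56, 95% interval -0.72 to 1.66) did not pass (adjusted p = 0.776, edgeR).

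The next genes of the array, epsilonTry and betaTry, varied even more. epsilonTry, which lies 118 bases from alphaTry, was at 68.6, 3.80 and 3.78 CPM in libraries labelled Pex5-depleted 1, 2 and 3, against 0.273, 30.2 and 3.22 CPM in control replicates 1, 2 and 3. The library labelled Pex5-depleted 1 alone held 59.1% of its UMIs. Its fitted value of 1.19 (SE 1.09) turned to -1.54 without that library. betaTry was at 33.6, 1.06 and 18.5 CPM against 0.273, 22.3 and 12.9 CPM, a fitted value of 0.57 (SE 0.95). Neither passed (adjusted p = 0.709 and 0.859, edgeR).

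kappaTry had the steadiest difference of the class. It was counted 17, 18 and 16 times in libraries labelled Pex5-depleted 1, 2 and 3, and 2, 2 and 5 times in control replicates 1, 2 and 3, which is 5.16 ± 1.23 CPM against 0.857 ± 0.425 CPM (SD, n = 3 each). Its groups did not overlap, and the log2 fold change of 2.52 (SE 0.84) had an unadjusted p of 0.00874 and an adjusted p of 0.189 (edgeR), so it did not pass. Its 3′ end lies 6 bases from that of lambdaTry on the other strand. lambdaTry was counted 2, 19 and 22 times against 0, 10 and 0 times, a fitted value of 1.90 (SE 1.25) that was 6.87 without control replicate 2, the control that held all 10. Whether counting used strand is not given in the sources used here, so tags of this pair may not be separable.

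The other 6 trypsin genes were too low to test. thetaTry had 16, 4 and 0 UMIs in the libraries labelled Pex5-depleted 1, 2 and 3 and 1, 0 and 0 in the controls, and iotaTry had 0, 1 and 15 against 0, 0 and 1. Each thus rested on 1 library, and not on the same one. deltaTry had 4, 6 and 0 UMIs in the libraries labelled Pex5-depleted 1, 2 and 3, and zetaTry had 0, 8 and 1. Neither had any in the controls, and for both the groups overlapped. Their summed 10 and 9 UMIs were 3.31-fold and 2.98-fold higher against 3 counts over the control group, leaving out their own counting error. etaTry had 8 UMIs against 3, and gammaTry had 1 against 0. gammaTry and deltaTry are near-identical copies, and reads that mapped to several loci were dropped, so their low counts are uncertain.

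Amy-p encodes the proximal of a pair of near-identical amylases and was higher in the libraries labelled Pex5-depleted. It was counted 449, 1090 and 345 times in libraries labelled Pex5-depleted 1, 2 and 3, or 164, 230.2 and 118 CPM, and 318, 210 and 207 times in control replicates 1, 2 and 3, or 86.7, 72.0 and 55.5 CPM. The groups did not overlap. Their difference on the log2 scale was 1.26 (SE 0.25, 95% interval 0.72 to 1.80; adjusted p = 0.0246, edgeR). The call held in 2 of the 6 fits without 1 library, those without control replicate 2 and without the library labelled Pex5-depleted 3. In the other 4 the log2 fold change was 0.98 to 1.42, with adjusted p from 0.0613 to 0.138 (edgeR).

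Amy-d, the distal copy, had a smaller fitted value. It was at 59.1, 76.9 and 39.5 CPM in libraries labelled Pex5-depleted 1, 2 and 3, against 38.2, 36.3 and 18.8 CPM in control replicates 1, 2 and 3. The groups did not overlap, by 39.5 against 38.2 CPM. The log2 fold change of 0.92 (SE 0.32) did not pass (adjusted p = 0.211, edgeR). The ratio of Amy-p to Amy-d UMIs was 2.77, 3.00 and 3.00 in the libraries labelled Pex5-depleted 1, 2 and 3, against 2.27, 1.98 and 2.96 in control replicates 1, 2 and 3. The amylase genes lie 7734 bases end to end on chromosome 2R, in opposite orientation. Since reads shared by the copies were dropped, the values count only what could be told apart, and the ratio is uncertain.

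All 8 Mal-A genes stand in 1 array of 24298 bases on chromosome 2R, and 3 of them were tested. Mal-A3 was counted 8, 83 and 25 times in libraries labelled Pex5-depleted 1, 2 and 3, and 8, 3 and 2 times in control replicates 1, 2 and 3, or 2.92, 17.5 and 8.58 CPM against 2.18, 1.03 and 0.537 CPM. The groups did not overlap, and the library labelled Pex5-depleted 2 held 64.3% of the UMIs. Its log2 fold change of 2.93 (SE 0.83) did not pass (adjusted p = 0.106, edgeR) and was 2.16 without that library. Mal-A6, at 10.2 ± 3.81 against 3.83 ± 2.10 CPM (SD, n = 3 each), gave a fitted log2 fold change of 1.42 (SE 0.64), not past the threshold (adjusted p = 0.349, edgeR). Its groups were 5.84 against 5.83 CPM apart at their nearest.

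Mal-A4 was the most abundant maltase gene. It was at 10.6, 39.5 and 5.15 CPM in libraries labelled Pex5-depleted 1, 2 and 3, against 7.36, 8.57 and 4.02 CPM in control replicates 1, 2 and 3. The library labelled Pex5-depleted 2 held 62.8% of its UMIs, and the groups overlapped. The log2 fold change of 1.49 (SE 0.64; adjusted p = 0.325, edgeR) was 0.24 without that library.

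Of the 5 untested maltase genes, Mal-A8 had 11, 47 and 3 UMIs in the libraries labelled Pex5-depleted 1, 2 and 3 and 1, 1 and 5 in the controls. Mal-A1 was high in 1 library of each group, with 0, 49 and 3 UMIs against 1, 38 and 1. Mal-A5 had 16, 17 and 7 against 0, 7 and 0, and Mal-A7 had 0, 25 and 4 against 4, 2 and 7. Mal-A2 had 1 UMI in the libraries labelled Pex5-depleted and 11 in the controls, the reverse of most of its neighbours. The library labelled Pex5-depleted 2 held the most UMIs for Mal-A1, Mal-A3, Mal-A4, Mal-A5, Mal-A6, Mal-A7 and Mal-A8, and it was the deepest library.

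None of the 4 mannosidase genes passed the filter. LManVI had 26, 12 and 0 UMIs in the libraries labelled Pex5-depleted 1, 2 and 3 and 1, 0 and 6 in control replicates 1, 2 and 3, and LManV had 1, 11 and 3 against 1, 1 and 5. LManI and LManII, which lie 417 bases apart on chromosome 2L and are read in opposite directions, had 8 and 7 UMIs in the libraries labelled Pex5-depleted and none in the controls. Against 3 counts over the control group they were 2.65-fold and 2.32-fold higher, leaving out their own counting error. All 8 LManI UMIs came from 1 library.

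Over the 22 tested genes the groups did not overlap in 7, all with the libraries labelled Pex5-depleted above (Jon25Biii, Jon99Cii, kappaTry, Amy-p, Amy-d, Mal-A3 and Mal-A6). That is 31.8% of the tested genes of the list, against 9.74% of all tested genes in that direction and 9.42% in the other. With RLE factors 6 did not overlap, and with no composition factor 5, Amy-d and Mal-A6 then overlapping. As kappaTry and Mal-A3 passed the filter only through the libraries labelled Pex5-depleted, the share is a description.

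Replicates of 1 group differed more for these genes than for most. The biological coefficient of variation that edgeR estimates within groups had a median of 0.566 over the 22 genes, against a trend value of 0.381 at their levels, and 20 of the 22 lay above the trend, as did 34.2% of all tested genes. It was 0.607 for the median Jonah gene and 0.794 for the median trypsin gene, but 0.235 for Amy-p and 0.286 for Amy-d, close to their trend of 0.216 and 0.263. Control replicate 1 alone was the lowest library for 15 of the 22 genes and control replicate 3 alone for 6, while lambdaTry was at 0 in both.

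Leaving out 1 library moved the direction of the weaker members and the number called. Without control replicate 1, the log2 fold change was positive in 16 of the 22, and 0 of 26 then tested members were called. Without control replicate 2 it was positive in 21, and the median over the 25 then tested was 2.38, with 5 called (Jon25Biii, Amy-p, Jon65Aiv, Jon65Aii and Jon99Cii). Without the library labelled Pex5-depleted 1 it was positive in 16 and 1 member was called, Jon25Biii. A call of 1 member also remained without control replicate 3 (Jon25Biii) and without the library labelled Pex5-depleted 3 (Amy-p), while Jon25Biii and Jon44E were called without the library labelled Pex5-depleted 2. Calls over all genes fell too, to 17 of 6013 tested without control replicate 1. They were 80 of 6083 without control replicate 2 and 44 of 5989 without control replicate 3. Without the library labelled Pex5-depleted 1 they were 34 of 6044, and the 6 fits ranged from 17 to 80 genes called.

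Other gut hydrolases outside the name rule gave a mixed picture. Of 47 listed, 41 were in the table and 17 tested; 4 were higher, 0 lower and 13 not past the threshold. The median of their fitted log2 fold changes was 1.13, the same with CG17633 at its ratio against 3 control counts. Of all tested genes, edgeR called 0.833% higher. By unadjusted p under 0.05 (edgeR), 5 of the 17 were higher and 2 lower, against 6.54% and 6.67% of all tested genes. DESeq2 called 3 higher and limma-voom 1, and both called 0 lower. Over all genes in either direction, DESeq2 called 208 of 5638 and limma-voom 84 of 5639. The 4 called by edgeR were CG17633, a gene of the zinc carboxypeptidase family without an adjusted p in DESeq2, and the lysozyme genes LysB, LysD and LysE. These lysozyme genes are near-identical copies whose separate values are uncertain. CG17633 was counted 14, 31 and 77 times in libraries labelled Pex5-depleted 1, 2 and 3 and never in the controls. Against 3 counts over the control group it was 40.4-fold higher, leaving out its own counting error. Without the library labelled Pex5-depleted 3 that value was 20.7-fold. Its call and those of LysB and LysE ended with limma-voom (adjusted p = 0.0918, 0.0580 and 0.128). The CG17633 call also ended without control replicate 1 (adjusted p = 0.0530) and without the library labelled Pex5-depleted 3 (adjusted p = 0.0990, edgeR). The most abundant of the list was cathD, the lysosomal aspartyl protease gene, at 646 ± 41.6 against 559 ± 37.8 CPM (SD, n = 3 each).

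Genes of regulators known to act on digestive enzyme genes did not pass. Of 13 listed, 12 were in the table and 7 tested, with a median log2 fold change of 0.19. Past the threshold were 0 in edgeR, DESeq2 and limma-voom, where edgeR called 1.65% of all tested genes in either direction. With 7 tested, 0 lies near that share. At an unadjusted p under 0.05 (edgeR), 0 were higher or lower, against 6.54% and 6.67% of all tested genes. GATAe, the GATA factor gene of the endodermal gut, which is also among the enterocyte markers, was at 20.7 ± 2.57 against 18.2 ± 3.43 CPM (SD, n = 3 each). Its fitted difference was 0.19 on the log2 scale (SE 0.35, 95% interval -0.55 to 0.93). The gene bigmax, whose product pairs with the sugar sensor Mondo, was the most abundant of them, at 40.1, 38.9 and 30.9 CPM in libraries labelled Pex5-depleted 1, 2 and 3, against 25.4, 31.5 and 25.8 CPM in control replicates 1, 2 and 3. Its log2 fold change was 0.41 (SE 0.28; adjusted p = 0.594, edgeR).

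Few of the enterocyte markers that are not digestive enzymes could be tested, and none of these gave a higher call. All 13 were in the table and 5 were tested. Of the 5, 0 were higher by edgeR, DESeq2 or limma-voom, where edgeR called 0.833% of all tested genes higher. With 5 tested, 0 lies near that share. At an unadjusted p under 0.05 (edgeR), 0 were higher, against 6.54% of all tested genes. The septate junction gene Tsp2A was lower, 1 of the 5, where edgeR called 0.816% of all tested genes lower. It was at 10.9 ± 4.49 against 41.2 ± 3.53 CPM (SD, n = 3 each), a call that held in 3 of the 6 fits without 1 library and ended without control replicate 1 and without the library labelled Pex5-depleted 2 or 3 (adjusted p = 0.0761, 0.0735 and 0.0610, edgeR). Their summed level was 177 to 242 CPM in libraries labelled Pex5-depleted and 235 to 347 CPM in the controls, highest in control replicate 1, where the protease sums were lowest. The most abundant of these markers was mex1, a gene of the brush border, at 123 ± 27.6 against 138 ± 25.0 CPM (SD, n = 3 each). The enterocyte factor gene nub had 1, 4 and 4 UMIs against 0, 1 and 0, near 0 in all. Of the others too low to test, Alp4 had 22 UMIs in the libraries labelled Pex5-depleted against 4 in the controls, and its groups did not overlap. Npc2f had 24 against 1, with 22 in the library labelled Pex5-depleted 3. The gene mesh had 18 against 11, and Npc1b and Vha100-4 each had 3 against 0. Peritrophin-A, at 3 against 20, and Cda9, at 0 against 1, went the other way.

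Markers of other cells gave the following sums. As for the enterocyte markers, their part in the enzyme levels was not tested. Enteroendocrine markers summed to 582 to 1056 CPM in libraries labelled Pex5-depleted and 1135 to 3223 CPM in the controls, with 3 of 13 tested lower (Orcokinin, 7B2 and Phm) and control replicate 1 the highest. Each of these calls ended in at least 4 of the 6 fits without 1 library, that without control replicate 1 included (adjusted p = 0.228, 0.0879 and 0.178, edgeR). The Orcokinin call also ended with DESeq2 and limma-voom (adjusted p = 0.0936 and 0.117), while those of 7B2 and Phm held with both. Over all tested genes, edgeR called 0.816% lower. DESeq2 called 5 of the 13 lower and limma-voom 3. In either direction, DESeq2 called 208 of 5638 genes and limma-voom 84 of 5639. At an unadjusted p under 0.05 (edgeR), 9 of the 13 were lower and 0 higher, against 6.67% of all tested genes lower. The median log2 fold change of the 13 was -1.165, with 1 positive. Progenitor markers summed to 1235 to 1787 against 1188 to 1462 CPM. Of the 13 tested, 0 were called by edgeR or limma-voom, where edgeR called 1.65% of all tested genes in either direction. DESeq2, which called 208 of 5638 genes in either direction, called 2 higher. At an unadjusted p under 0.05 (edgeR), 2 were higher, mira and E(spl)mbeta-HLH, and 0 lower, against 6.54% and 6.67% of all tested genes. The esg transcript itself was at 55.6 ± 9.65 against 42.7 ± 13.0 CPM (SD, n = 3 each; adjusted p = 0.615, edgeR). Markers of the acid-secreting copper cell region summed to 28.3 to 47.8 against 14.5 to 18.8 CPM, with the metallothionein gene MtnA called higher among 3 tested. MtnA itself was at 22.3 ± 10.3 against 4.895 ± 0.596 CPM (SD, n = 3 each). Ctr1B and Ptx1, also tested, overlapped between groups, with log2 fold changes of -0.02 and 0.47 (adjusted p = 0.995 and 0.877, edgeR). Of those too low to test, CAH1 had 27 UMIs in the libraries labelled Pex5-depleted against 2 in the controls, and its groups did not overlap. The gene lab had 11 against 3 and Vha100-4 had 3 against 0. The MtnA call held in 1 of the 6 fits without 1 library, the fit without the library labelled Pex5-depleted 2, and ended with limma-voom (adjusted p = 0.122).

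Markers of cells from outside the epithelium were low. Visceral muscle markers summed to 43.0 to 65.6 CPM in libraries labelled Pex5-depleted and 66.8 to 77.2 CPM in the controls. Most of this was Tm1, which other cells express too, while the muscle myosin gene Mhc had 0 to 4 UMIs in any library. Tm1, the 1 tested gene of the list, was lower without overlap, as were 9.42% of all tested genes. Its log2 fold change of -0.67 (SE 0.24) did not pass (adjusted p = 0.225, edgeR). Haemocyte markers summed to 13.1 to 20.3 against 16.4 to 19.5 CPM, nearly all crq, and Malpighian tubule markers to 4.01 to 13.9 against 5.37 to 7.36 CPM. Fat body and yolk genes summed to 7.30, 51.7 and 3.43 CPM in libraries labelled Pex5-depleted 1, 2 and 3, against 2.40 to 4.83 CPM in the controls. The yolk protein genes Yp1, Yp2 and Yp3 had 65, 37 and 135 UMIs in the library labelled Pex5-depleted 2, the library with the highest amylase and maltase sums.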

How the data were processed

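Per the labels' protocols, midguts were dissociated with elastase, GFP-positive cells were sorted, and libraries were made with a 3′ transcriptome kit that adds well indexes and UMIs. The authors deposited UMI counts per gene and library, and run totals (other values in the deposited metrics: 481949149 reads, of which 0.717% were dropped for mapping to several loci). HISAT2, StringTie and DESeq2 are in the submitters' processing notes, with the build dm6, but without roles. The 29 columns of other well indexes matched no sample and were not used, and 7 spike-in UMIs were left out. The deposited table of fold changes names no sides and was not used.

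The counts were tested with edgeR 4.0.16 in R 4.3.3 (quasi-likelihood F test, TMM factors, filterByExpr with a minimum count of 10, no covariate, Benjamini-Hochberg over all 5639 tested genes, threshold 0.05). The SE was taken as the log2 fold change over the square root of the F statistic. CPM uses the library size over tested genes times the TMM factor. Alternatives were DESeq2 1.42.0, limma-voom 3.58.1, other scaling and filters, the replicate block and each library left out. Scripts were tested on simulated data. Within groups, no pair of replicates agreed within counting error (chi-square over its degrees of freedom, 11.4 to 18.2). The labels call the replicates biological, and p-values measure the spread between them.

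The members and lists were chosen with earlier results of these data known. The text names every member that was called or had an unadjusted p under 0.05, the 12 with the highest mean CPM, those with over 50% of at least 50 UMIs in 1 library, and other members by class. Outside the members it names Pex5, esg, called genes of the fixed lists and the most abundant gene of a list. Genes named beyond this rule (among them nub, Mhc, GATAe and the yolk genes) were chosen after their values were seen. Positions are those of the count table, in dm6; 40 of the 41 members had the same start and end in Ensembl release 115 (not Jon74E).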

Additional observations from a re-analysis of the deposited data

How the results depend on the processing

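Results are for libraries labelled Pex5-depleted over control. The count of members called higher, 2 with all libraries, was 6 with no filter (Jon44E, Jon65Aii, Jon99Cii and Mal-A3 joined) and 4 with DESeq2. It was 0 to 5 in the fits without 1 library. Members called lower numbered 1 with no filter (Jon25Bi, log2 fold change -1.15, adjusted p = 0.00433 by edgeR) and 0 in every other setting run. The median log2 fold change of tested members was 0.84 to 2.38 without 1 library. Over all genes, 93 calls became 197 with no filter, 208 with DESeq2, 58 with the replicate block and 17 to 80 without 1 library; the cause was not tested. Same-numbered libraries did not deviate together (r = -0.01, -0.05 and 0.01 for numbers 1, 2 and 3). Whether they were handled in pairs is not given in the labels used here, and these values cannot decide it. With the block, 2 members were again called higher, Jon25Biii and Amy-p, while the calls of Orcokinin, Phm and MtnA ended (adjusted p = 0.155, 0.0519 and 0.0769, edgeR). Jon25Bii turned sign with limma-voom (-0.17) and the block (-0.38). Without 1 library the log2 fold change ran from -1.47 to 0.72 for Jon25Bii, -1.17 to 1.87 for Jon99Fi, -0.38 to 2.16 for Jon74E, -0.34 to 2.69 for Jon99Fii, -0.082 to 1.60 for alphaTry, -0.30 to 1.38 for betaTry, -1.54 to 3.79 for epsilonTry, 1.12 to 6.87 for lambdaTry and -0.028 to 1.76 for Pex5. Over the 22 tested members and 13 alternatives, 245 values kept direction and call, 6 lost a call, 9 gained one and 17 changed sign, none of those called; 9 had no adjusted p, 8 with DESeq2 and 1 (Mal-A3) with at least 10 UMIs asked in 3 libraries. The sum over members, 1.99 times the control mean, was 1.95 with no composition factor, 1.93 without Amy-p and, added after seeing the data, 1.54 to 3.29 without 1 library. Depth limits the 19 untested members, most with under 3 CPM.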

Other observations

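Some gut hydrolase genes outside the name rule, singled out after their values were seen, went with the Jonah genes or against them. The gene yip7, which encodes a protease related to the Jonah family, was at 274, 180.3 and 190 CPM in libraries labelled Pex5-depleted 1, 2 and 3, against 52.1, 315 and 179 CPM in control replicates 1, 2 and 3. Like the Jonah proteases as a class, it was lowest in control replicate 1. Its log2 fold change was 0.24 (SE 0.41; adjusted p = 0.868, edgeR). The carboxypeptidase family gene CG12374 was at 117, 19.0 and 46.0 CPM against 9.0, 44.6 and 21.2 CPM, a log2 fold change of 1.29 (SE 0.57) that did not pass (adjusted p = 0.343, edgeR). The serine protease gene Phae2 was at 0.365, 1.27 and 4.12 CPM against 12.3, 8.23 and 7.24 CPM. Its groups did not overlap, with the libraries labelled Pex5-depleted below, and the log2 fold change of -2.27 (SE 0.78) did not pass (adjusted p = 0.204, edgeR). CG14820, also of the carboxypeptidase family, was at 26.3, 65.7 and 59.7 CPM against 77.5, 199.8 and 41.3 CPM. Its groups overlapped, and the log2 fold change of -1.06 (SE 0.45) did not pass (adjusted p = 0.322, edgeR).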
